A study of Rattus norvegicus with 6 samples.

Results

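Cholesterol genes were followed in rat hippocampal cultures exposed to insulin, taken as the rows of the deposited expression table whose symbol belongs to a list of 33 genes of cholesterol synthesis, uptake and efflux. All 33 were found, among 37183 symbols in the table. They comprise 18 enzymes of synthesis, 4 genes that control the sterol-sensing SREBP factors, 5 of uptake and intracellular transport, and 6 of storage, efflux and turnover. The study used primary rat cultures, labelled hippocampal astrocytes and hippocampal neurons, and sequenced total RNA after ribosomal depletion. Each cell type had 3 libraries: an untreated control at 0 h, which the titles call saline, then cultures given 200 nM insulin for 6 h or for 12 h. Every group was thus a single library, 6 in all. In each culture the medium had been replaced 4 h before treatment, for astrocytes by a medium with 2% FBS and 5 mM glucose and for neurons by serum-free Neurobasal with insulin-free B27. No control of 6 h or 12 h was analysed here, so insulin and time in the new medium cannot be told apart.

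Cells make cholesterol from acetyl-CoA through mevalonate, isoprenoid units and squalene, and then reshape lanosterol into cholesterol. When membranes are short of sterol, SCAP carries SREBP proteins out of the endoplasmic reticulum to be cut, and the released SREBP-2 factor, encoded by Srebf2, switches on the genes of synthesis and uptake. INSIG proteins hold the complex back. Surplus cholesterol is esterified by Soat1, or exported by the transporters Abca1 and Abcg1, which are targets of the LXR receptors Nr1h2 and Nr1h3. Cholesterol of the brain is largely made locally, and astrocytes are regarded as a major supplier to neurons.

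Values are FPKM, which scale the fragments of a gene by its length and by the size of the library, and the authors deposited them as quantile-normalised log2 values. Differences are given in log2 units, the first-named library minus the second. A gene was counted as measured in a comparison when at least 1 of the libraries compared held 1 FPKM or more, and as risen or fallen when its difference reached 0.5, about 1.41-fold. With 1 library per group there is no replicate error, no test and no p-value, and the depth of the libraries is unknown. How often genes of the whole table reached the same size is therefore printed beside each count. Of the 33 genes, 21 reached 1 FPKM in any library, 15 of the 18 enzymes and 6 of the other 15.

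Cell type markers did not follow the labels throughout. The 9 astrocyte markers summed to 29.4 to 35.3 FPKM in the libraries labelled astrocyte and to 340 to 380 FPKM in those labelled neuron, where Gfap ran from 96.7 to 134 FPKM. The 6 mural and smooth muscle markers summed to 425 to 504 FPKM in the libraries labelled astrocyte, and the 5 fibroblast markers found to 90.3 to 110 FPKM. Most of the mural sum was Tagln, at 353 to 417 FPKM, while Myh11 and Rgs5 were at 0.00875 FPKM or less there. The fibroblast sum was nearly all Col1a1, Col3a1 and Fn1, while Dcn and Lum were at 0.787 FPKM or less. The 9 neuron markers summed to 53.1 to 57.6 FPKM in the libraries labelled neuron, against 2.58 to 3.06 FPKM in those labelled astrocyte. Among them Rbfox3, Syt1 and Slc17a7 stayed below 1 FPKM in every library. The 8 oligodendrocyte lineage markers summed to 111 to 118 FPKM against 3.62 to 3.95 FPKM, mostly Olig1 and Olig2. Mog and Cspg4 went the other way, at 1.69 and 0.397 FPKM in the control labelled neuron against 2.21 and 1.32 FPKM in that labelled astrocyte. Of 5 microglial markers only Tmem119 passed 1 FPKM, in the libraries labelled astrocyte, and no endothelial marker did. The libraries are therefore called astrocyte-labelled and neuron-labelled. In such bulk samples a change in the cells present and a change in the RNA of each cell cannot be told apart.

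The promoters of Idi1, Hmgcs1 and Msmo1, the synthesis genes that rose at both times in the neuron-labelled cultures, are shown with that of Abca1, which was lower after insulin in the astrocyte-labelled libraries. Each run holds the 250 bases before the RefSeq gene start. Capitals mark the CCAAT motif (or ATTGG on the other strand), the box bound by NF-Y, and the GGGCGG motif (or CCGCCC), a GC box bound by Sp1. Both factors are known partners of SREBP at sterol-responsive promoters.
Idi1 promoter (GRCr8 chr17:66547525-66547774, - strand): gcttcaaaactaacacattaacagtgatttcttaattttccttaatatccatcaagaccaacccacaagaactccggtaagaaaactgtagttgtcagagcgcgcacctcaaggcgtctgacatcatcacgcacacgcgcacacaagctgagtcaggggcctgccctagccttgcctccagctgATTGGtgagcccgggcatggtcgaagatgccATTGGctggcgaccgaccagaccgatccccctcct
Hmgcs1 promoter (GRCr8 chr2:53382054-53382303, + strand): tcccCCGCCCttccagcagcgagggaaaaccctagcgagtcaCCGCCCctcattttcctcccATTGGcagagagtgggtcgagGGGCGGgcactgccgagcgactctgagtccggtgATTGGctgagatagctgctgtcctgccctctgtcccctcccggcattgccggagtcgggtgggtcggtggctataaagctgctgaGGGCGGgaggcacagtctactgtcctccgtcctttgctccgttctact
Msmo1 promoter (GRCr8 chr16:29746863-29747112, + strand): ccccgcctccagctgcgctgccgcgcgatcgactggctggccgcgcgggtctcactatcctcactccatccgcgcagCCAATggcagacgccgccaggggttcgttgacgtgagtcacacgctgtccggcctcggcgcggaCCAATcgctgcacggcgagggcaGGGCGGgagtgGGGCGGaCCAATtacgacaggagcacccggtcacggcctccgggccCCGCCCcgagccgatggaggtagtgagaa
Abca1 promoter (GRCr8 chr5:72596474-72596723, - strand): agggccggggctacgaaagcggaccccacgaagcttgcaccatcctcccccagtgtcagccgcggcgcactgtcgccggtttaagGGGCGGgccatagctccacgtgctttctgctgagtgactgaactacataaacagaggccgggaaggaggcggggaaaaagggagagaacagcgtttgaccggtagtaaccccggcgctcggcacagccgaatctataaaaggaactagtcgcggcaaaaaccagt
Idi1 held 2 CCAAT matches and no GC box, Hmgcs1 held 2 and 4, Msmo1 held 3 and 3, and Abca1 held none and 1. These 4 were picked by their values, and the motifs did not separate genes that rose from the rest. Acat2, which rose at 12 h in the astrocyte-labelled cultures, held 0 CCAAT matches and 2 GC boxes. Npc2, which neither rose nor fell, held 3 and 6. RefSeq promoters of assembly GRCr8 were matched by symbol for 28 of the 33 genes. Of these 28, 20 (71.4%) held a CCAAT match, 22 (78.6%) a GC box and 16 (57.1%) both. Among all 33469 promoters of that RefSeq set, 34.0% held CCAAT, 30.5% the GC box and 10.1% both. That set was not matched to the 28 for base composition or expression, so the gap need not concern cholesterol genes. No CCAAT match overlapped a GC box in the 28. The sterol regulatory element was searched as TCACNCCAC on both strands, where N is any base. It was found in 0 of the 28 windows and in 0.974% of all, which says only that these letters are not in these 250 bases. A match is a description of sequence and not evidence of binding.

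The first comparison asked what insulin did to cholesterol synthesis in the astrocyte-labelled cultures. Several enzymes were higher at 12 h, by modest amounts. The 18 enzymes summed to 61.4 FPKM without insulin, 74.0 FPKM at 6 h and 85.2 FPKM at 12 h, which is 1.20-fold and 1.39-fold the control. None of the 14 measured had risen by 0.5 at 6 h, where 7.14% of all 6206 genes had. At 12 h, 8 of the 15 measured enzymes had risen (Acat2, Idi1, Fdps, Lss, Tm7sf2, Msmo1, Nsdhl and Sc5d), against 5.71% of all 6221 genes. No measured cholesterol gene fell at either time, of 19 and 20, against 3.79% and 3.47% of all genes. Counts of 0 among so few are near that background. The 1 FPKM minimum bears on these counts: Tm7sf2 and Dhcr7 at both times, and Lss at 12 h, were measured only through the insulin library, where they were higher. Abca1, which was lower after insulin from a control of 0.977 FPKM, was left out by the same minimum. With 1 FPKM required in both libraries, a setting added after the data were seen, 6 of 12 enzymes had risen at 12 h and none at 6 h, against 4.00% and 5.19% of all genes.

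In the branch from acetyl-CoA to squalene the most abundant transcript was Fdps, which makes farnesyl diphosphate. Fdps measured 11.0 FPKM before insulin, 13.5 FPKM at 6 h and 16.3 FPKM at 12 h, a 12 h rise of 0.56. Idi1, which isomerises the isoprenoid unit, was at 7.28, 8.98 and 10.3 FPKM in the same order, and its 12 h difference of 0.50 just reached the call size. Acat2, the cytosolic thiolase of the first step, was at 1.4, 1.80 and 2.05 FPKM, a 12 h rise of 0.55. These genes shared 1 order, lowest in the control and highest at 12 h. Hmgcs1, which makes HMG-CoA, was at 9.40, 10.3 and 12.1 FPKM, and its differences of 0.13 and 0.36 stayed under the call size. The kinase gene Pmvk (0.20 and 0.23), the decarboxylase gene Mvd (0.38 and 0.35) and Fdft1, which makes squalene (0.17 and 0.36), also stayed under it. Mevalonate kinase (Mvk) was at 0.648, 0.895 and 0.985 FPKM, below the 1 FPKM minimum throughout.

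The steps from squalene to cholesterol held 5 of the 8 enzymes that rose at 12 h. Lss, which closes squalene epoxide to lanosterol, had the largest 12 h difference of these enzymes, 0.87, after 0.45 at 6 h, but it was scarce, with 0.606, 0.827 and 1.11 FPKM. Nsdhl, a sterol dehydrogenase, measured 1.10, 1.32 and 1.69 FPKM, a 12 h rise of 0.62. Sc5d, the desaturase of a late step, measured 4.05, 4.94 and 6.10 FPKM, a 12 h rise of 0.59. In these genes as well the 12 h library was highest and the control lowest. Msmo1, the sterol methyl oxidase, measured 8.22, 10.5 and 11.8 FPKM, a 12 h rise of 0.53. The sterol reductase gene Tm7sf2 measured 0.919, 1.26 and 1.34 FPKM, a 12 h rise of 0.55. Sqle, the squalene epoxidase and a rate-controlling step, was at 3.16, 3.63 and 4.03 FPKM, a 12 h difference of 0.35. Cyp51, the lanosterol demethylase, differed by 0.21 and 0.40, and Dhcr7, which performs a final reduction, by 0.48 and 0.45. Hsd17b7 and Ebp stayed below 1 FPKM, and Hsd17b7 was the only enzyme of the 18 below its control at both times, at 0.246, 0.221 and 0.215 FPKM.

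**Figure D1:**
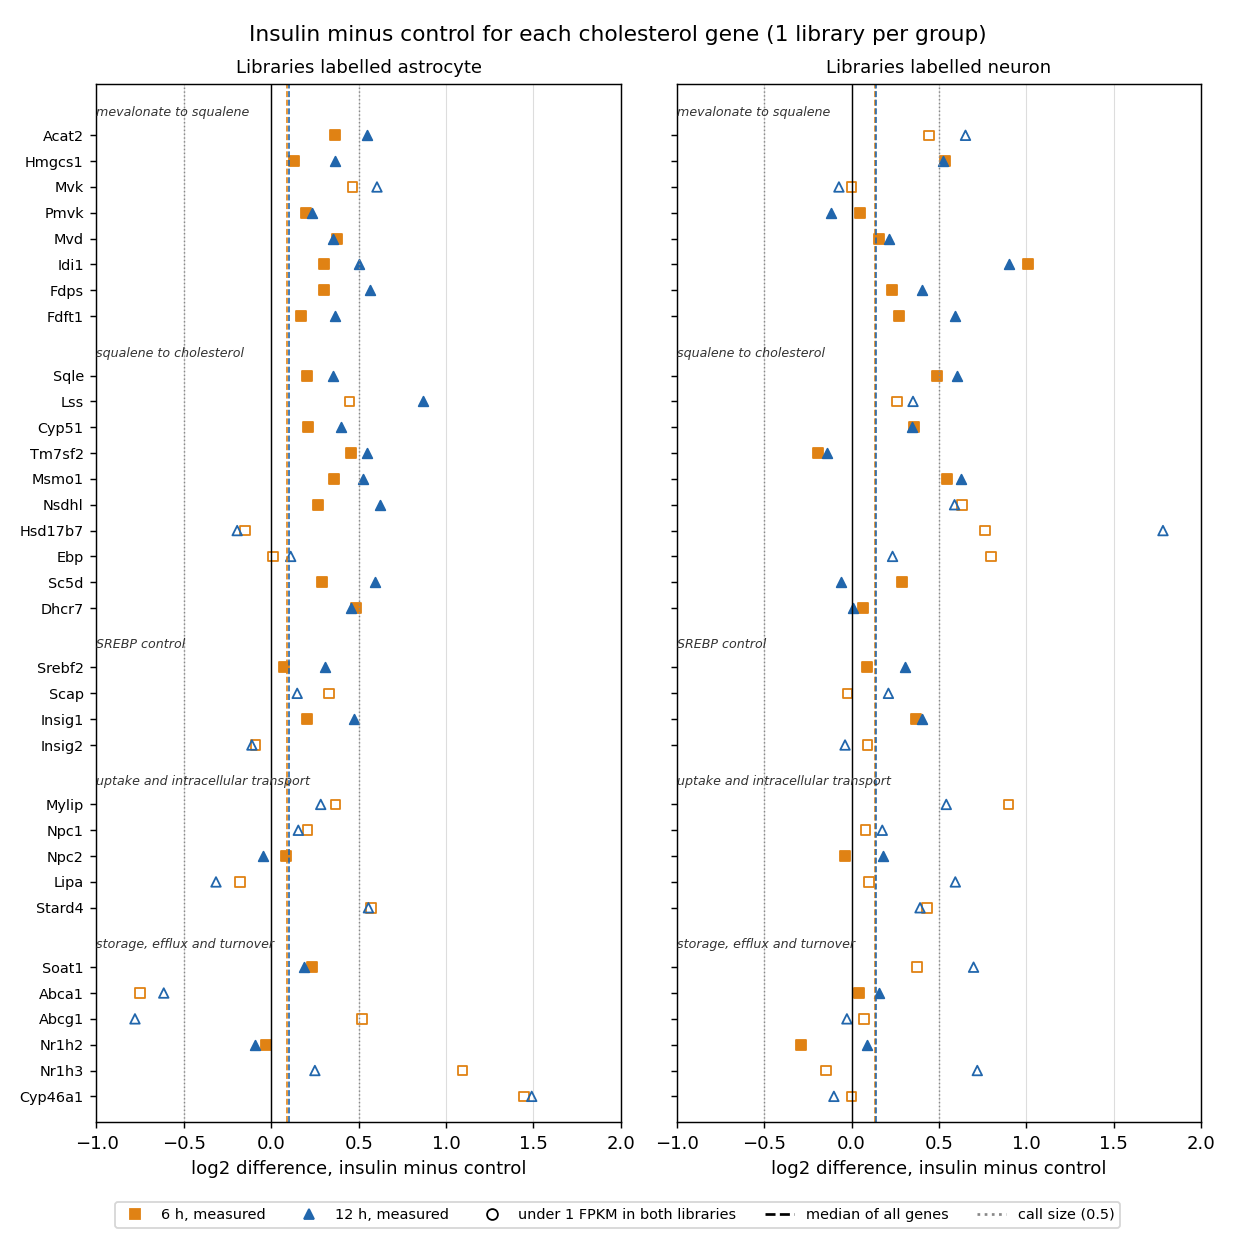
Log2 difference of insulin minus control for each gene (x axis) at 6 h (squares) and 12 h (triangles), in astrocyte-labelled (left) and neuron-labelled (right) cultures, 1 library per group. Open symbols are genes under 1 FPKM in both libraries compared, dashed lines the medians of all genes, and dotted lines the call size of 0.5. On the left the enzymes of both synthesis branches lie to the right of the dashed lines except Hsd17b7 and, at 6 h, Ebp, and on the right they are more scattered, with Idi1 at 1.01 and 0.90.

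The median of all genes was itself above 0, at 0.09 and 0.10 in the astrocyte-labelled comparisons. Over the 12 enzymes at 1 FPKM or more in both libraries compared, the median difference was 0.28 at 6 h and 0.45 at 12 h. With no minimum, 17 of the 18 enzymes were above their control at each time, all but Hsd17b7. All 14 measured enzymes at 6 h and all 15 at 12 h were above it. Of all measured genes, 63.94% and 66.95% were. With the shift of the all-gene median taken off each difference, 2 of the 20 measured cholesterol genes rather than 8 reached 0.5 at 12 h. Of all genes 3.39% did. They were Nsdhl and Lss, the second of which was at 1 FPKM only in the insulin library. The other 6 of the 8 had differences between 0.50 and 0.59 before the shift was taken off, close to the call size. Most enzymes of the astrocyte-labelled cultures were highest at 12 h. The order control, 6 h, 12 h held for 13 of 15 (86.7%), all but Mvd and Dhcr7, against 26.4% of all 6360 genes. The minimum bears on this count too: Lss and Tm7sf2, among the 13, and Dhcr7 passed it only through insulin libraries. Mvk, in the same order, was left out by it. From 6 h to 12 h the median difference of the 15 enzymes was 0.19. None of the 15 was 0.5 higher or lower, where 2.4% and 3.39% of all genes were, so this is near those shares.

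**Figure D2:**
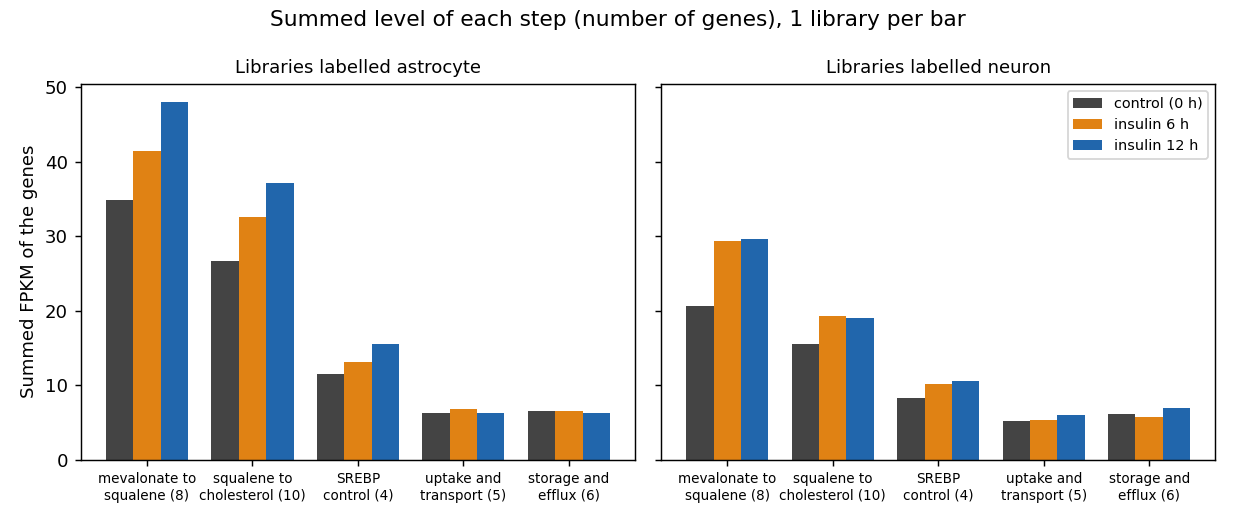
Summed FPKM (y axis) of the genes of each step in astrocyte-labelled (left) and neuron-labelled (right) libraries, 1 library per bar, for the control, 6 h and 12 h of insulin. The bars of both synthesis branches climb at each time on the left, to 48.0 and 37.2 FPKM at 12 h, and are nearly level between 6 h and 12 h on the right.

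The same enzymes were then examined in the neuron-labelled cultures, where 5 of 12 had risen by 12 h and the summed level was the same at 6 h and 12 h. The 18 enzymes summed to 36.2 FPKM without insulin, 48.6 FPKM at 6 h and 48.6 FPKM at 12 h, which is 1.34-fold at each time. Of 12 measured enzymes 3 rose at 6 h (Hmgcs1, Idi1 and Msmo1), against 12.4% of all 6610 genes. At 12 h, 5 rose, the same 3 with Fdft1 and Sqle, against 15.7% of all 6641 genes. None of the 17 measured cholesterol genes fell at either time, where 3.63% and 5.48% of all genes did. A count of 0 is near that background. With no minimum, 17 of the 18 enzymes were above their control at 6 h, as many as in the astrocyte-labelled cultures, and 14 at 12 h. Of the 12 measured enzymes 11 and 9 were above it, where 68.06% and 66.07% of all measured genes were.

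Idi1 was the only cholesterol gene to reach 2-fold in an insulin comparison among those measured. It measured 3.66 FPKM before insulin, 7.36 FPKM at 6 h and 6.84 FPKM at 12 h, differences of 1.01 and 0.90. Among all genes 1.6% were 2-fold higher at 6 h and 2.39% at 12 h, and 1.29% and 1.45% were 2-fold lower. In the astrocyte-labelled cultures 1.05% and 0.611% of all genes were 2-fold higher at these times and 0.886% and 0.916% lower. No measured cholesterol gene was among them, which is near those shares. Hmgcs1 was at 8.40, 12.2 and 12.1 FPKM, differences of 0.53 and 0.52. For Idi1 and Hmgcs1 both insulin libraries stood above the control and close to each other. Msmo1 was at 2.26, 3.29 and 3.49 FPKM, differences of 0.54 and 0.63. Fdft1 was at 1.33, 1.60 and 2.00 FPKM and Sqle at 2.52, 3.54 and 3.83 FPKM, with 12 h rises of 0.59 and 0.60 and 6 h differences of 0.27 and 0.49. Fdps, the leading transcript of the astrocyte-labelled cultures, was at 3.58, 4.20 and 4.74 FPKM and stayed under the call size.

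The other measured enzymes of the neuron-labelled cultures differed by less. Cyp51 differed by 0.36 and 0.35, and Mvd by 0.16 and 0.21. Sc5d was at 2.84, 3.47 and 2.73 FPKM, higher than the control only at 6 h. Pmvk (0.05 and -0.11), Dhcr7 (0.06 and 0.01) and Tm7sf2 (-0.19 and -0.14) lay below the median of all genes, which was 0.14 at both times. Among enzymes below 1 FPKM, Acat2 was at 0.435, 0.591 and 0.683 FPKM, Nsdhl at 0.362, 0.560 and 0.544 FPKM, and Hsd17b7 at 0.0464, 0.0789 and 0.160 FPKM. Acat2 and Hsd17b7 had the order control, 6 h, 12 h, while Nsdhl was level between the insulin libraries. Also below 1 FPKM, Lss ran from 0.442 to 0.564 FPKM, Mvk was at 0.653 FPKM or less and Ebp, a sterol isomerase, ran from 0.127 to 0.221 FPKM. With the all-gene median taken off, Idi1 alone reached 0.5 at each time, where 6.35% and 8.43% of all genes did. Of the 12 measured enzymes 5 (41.7%) were in the order control, 6 h, 12 h, where 31.6% of all 6771 genes were. From 6 h to 12 h their median difference was 0.02. None of the 12 was 0.5 higher or lower, where 3.14% and 2.45% of all genes were, so this is near those shares. Between these times 0.555% of all genes were 2-fold higher and 0.51% lower in the neuron-labelled cultures. In the astrocyte-labelled ones 0.256% were higher and 0.511% lower. Again no measured cholesterol gene was among them, which is near those shares.

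Cell type markers moved beside these values. In the neuron-labelled cultures the mural list summed to 4.52, 6.72 and 10.6 FPKM in time order, nearly all of it Tagln, at 4.35, 6.53 and 10.3 FPKM. Acta2, a defining marker of that list, had the same order at far lower levels, 0.00209, 0.00679 and 0.0149 FPKM. In the astrocyte-labelled libraries it was at 47.4 to 68.2 FPKM. The fibroblast list summed to 0.0697, 0.113 and 0.249 FPKM. At 12 h 6 of the 7 measured astrocyte markers were below their control, with a median difference of -0.34, none of them by 0.5, while Gfap was above it by 0.47. Of 5 measured neuron markers 1 fell at 12 h, Gad1, by 0.77. The part of the cells present in the neuron-labelled differences was not tested. In the astrocyte-labelled cultures the mural list summed to 425, 438 and 504 FPKM in time order. None of its 4 measured markers rose against the control, and 1, Acta2, rose between 6 h and 12 h. The fibroblast list summed to 94.4, 90.3 and 110 FPKM and the astrocyte list to 30.9, 35.3 and 29.4 FPKM. Of 5 measured astrocyte markers, Gfap rose at 6 h, at 6.23, 12.4 and 8.45 FPKM, and Glul fell at 12 h, at 5.32, 4.20 and 3.29 FPKM. The list's median difference was 0.03 at 6 h and -0.34 at 12 h, when 4 of the 5 were below the control. Their part in the enzyme differences was not tested either.

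Measured side by side at 12 h, Idi1 and Msmo1 rose in both cultures, out of 16 cholesterol genes measured in both. Their astrocyte-labelled differences, 0.50 and 0.53, were close to the call size. With the all-gene median taken off they were 0.40 and 0.42, under it. At 6 h none of the 16 rose in both. Of all genes measured in both cultures, 0.985% rose in both at 12 h and 0.911% at 6 h. The 12 h difference was larger in the astrocyte-labelled cultures for 9 of the 16 and the 6 h difference for 8. The gap, astrocyte-labelled minus neuron-labelled, was widest for Idi1 at 6 h (-0.70) and for Tm7sf2 at 12 h (0.69), followed at 12 h by Sc5d (0.65). With 1 library per group these contrasts between cell types have no test.

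Genes that control SREBP were examined next. Insig1, itself a target of SREBP and a brake on it, was the abundant member, at 9.46, 10.9 and 13.1 FPKM in the astrocyte-labelled libraries and at 6.12, 7.90 and 8.09 FPKM in the neuron-labelled ones. Its differences were 0.21 and 0.47 in the astrocyte-labelled cultures and 0.37 and 0.40 in the neuron-labelled ones, under the call size at each time. Insulin libraries were above their control in both cultures, as they were for 63.94% to 68.06% of all measured genes. Insig2, a related brake, was below 1 FPKM, with differences from -0.11 to 0.09. Srebf2 was at 1.21, 1.27 and 1.49 FPKM in the astrocyte-labelled libraries and at 0.964, 1.03 and 1.19 FPKM in the neuron-labelled ones, a 12 h difference of 0.31 in each. Its 6 h differences of 0.07 and 0.09 lay below the all-gene medians of 0.09 and 0.14 in the same cultures. Scap, the escort protein, ran from 0.442 to 0.555 FPKM in the astrocyte-labelled cultures and from 0.697 to 0.820 FPKM in the neuron-labelled ones.

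Genes of uptake and intracellular transport were scarce, and only Npc2 was measured. Npc2, which binds cholesterol within lysosomes, was at 4.42, 4.69 and 4.29 FPKM in the astrocyte-labelled libraries and at 3.82, 3.73 and 4.33 FPKM in the neuron-labelled ones. Its differences ran from -0.04 to 0.18, with insulin libraries on both sides of the controls. Its membrane partner Npc1 ran from 0.293 to 0.668 FPKM over the 6 libraries. Stard4, a carrier that moves sterol between membranes, was below 1 FPKM but above its control in all 4 insulin libraries, at 0.528, 0.784 and 0.776 FPKM in the astrocyte-labelled cultures and at 0.267, 0.361 and 0.351 FPKM in the neuron-labelled ones. Mylip, the ubiquitin ligase that removes lipoprotein receptors, stayed at 0.188 FPKM or less. Lipa, the lysosomal cholesteryl ester hydrolase, was at 0.890, 0.787 and 0.715 FPKM in the astrocyte-labelled cultures and at 0.387, 0.415 and 0.584 FPKM in the neuron-labelled ones.

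On the efflux side, Abca1 was lower after insulin in the astrocyte-labelled cultures, opposite in sign to nearly all synthesis enzymes. This exporter of cholesterol to apolipoproteins measured 0.977 FPKM before insulin, 0.580 FPKM at 6 h and 0.638 FPKM at 12 h, differences of -0.75 and -0.62. All 3 values lie under the 1 FPKM minimum, the control by little, so Abca1 was not counted as fallen. In the neuron-labelled cultures it was at 1.42, 1.47 and 1.59 FPKM, differences of 0.04 and 0.16. Abcg1, which loads cholesterol onto lipoprotein particles, was at 0.0776 FPKM or less in the astrocyte-labelled libraries and between 0.208 and 0.223 FPKM in the neuron-labelled ones.

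The LXR gene Nr1h2 was at 3.78, 3.71 and 3.54 FPKM in the astrocyte-labelled libraries and at 3.38, 2.77 and 3.59 FPKM in the neuron-labelled ones, with differences between -0.29 and 0.09. Nr1h3, the other LXR gene, was at 0.181 FPKM or less in all 6. Soat1, which esterifies cholesterol for storage, was at 1.74, 2.05 and 1.98 FPKM in the astrocyte-labelled cultures. In the neuron-labelled ones it was at 0.602, 0.781 and 0.977 FPKM, differences of 0.37 and 0.70 at levels below the minimum. Its insulin libraries were above the control in both cultures, as they were for most measured genes. Cyp46a1, the neuronal hydroxylase that clears brain cholesterol, was at 0.401 to 0.430 FPKM in the neuron-labelled libraries and at 0.0343 FPKM or less in the astrocyte-labelled ones. Over the 15 cholesterol genes that are not synthesis enzymes, 5 were measured in each insulin comparison and none rose or fell. Between 5.71% and 15.7% of all genes rose in these comparisons, so a count of 0 among 5 is near that background.

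**Figure D3:**
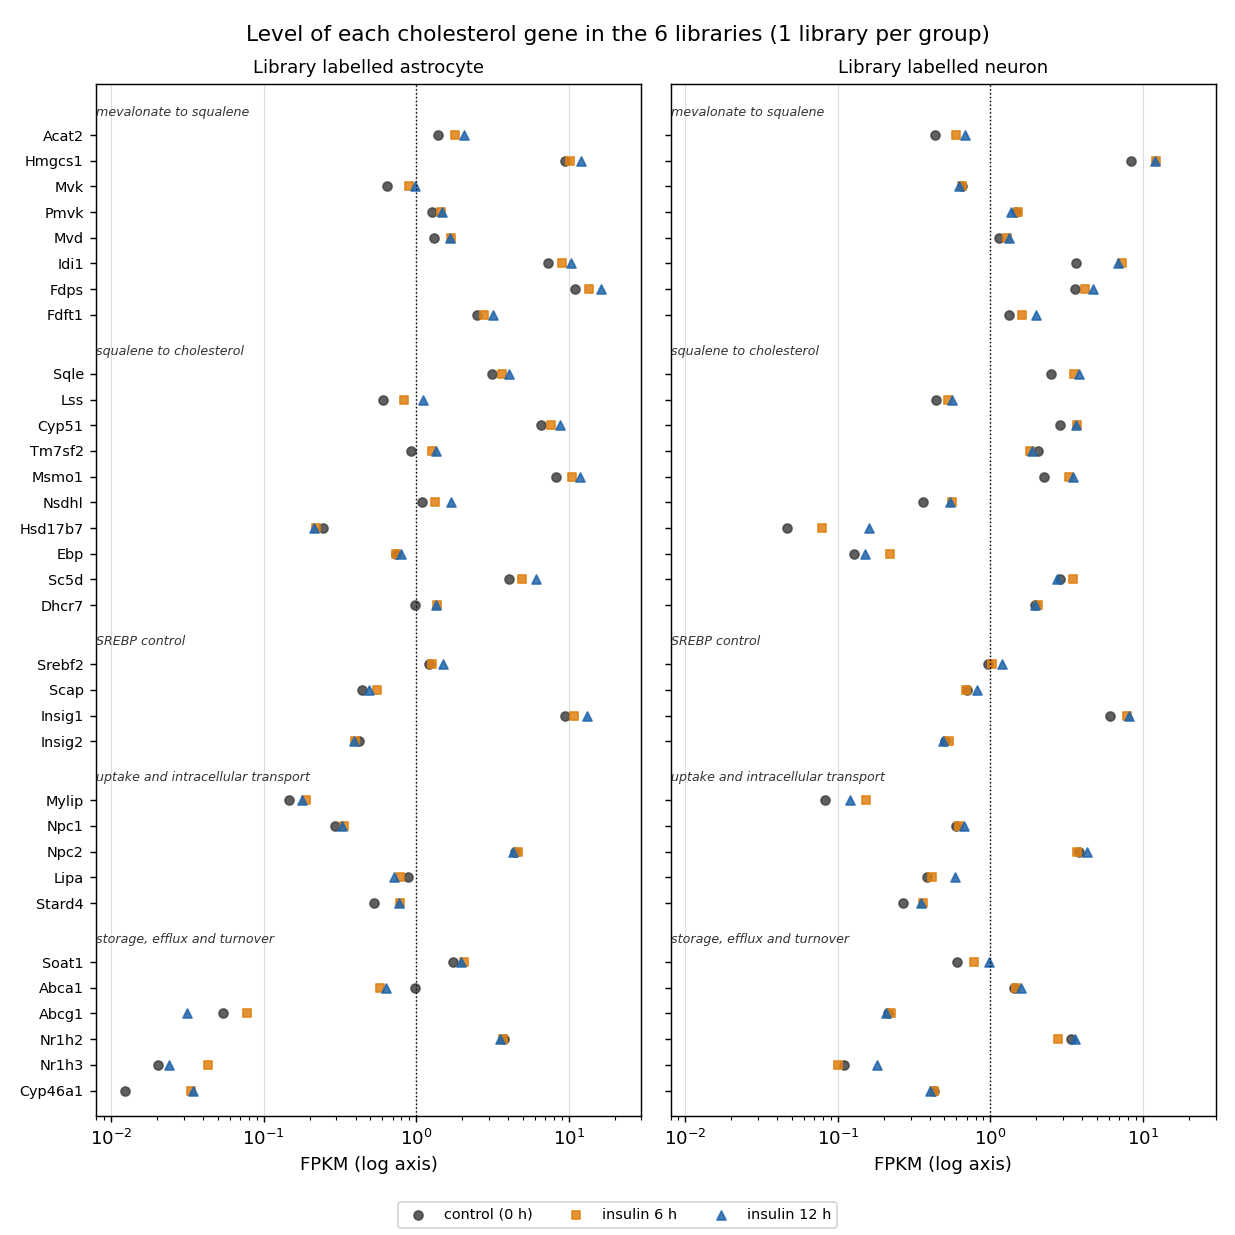
FPKM of each gene on a log axis in the astrocyte-labelled (left) and neuron-labelled (right) libraries, for the control (circles), 6 h (squares) and 12 h (triangles) of insulin, 1 library per symbol. The dotted line is the minimum of 1 FPKM. Most synthesis enzymes lie to its right and most uptake and efflux genes to its left, and Abca1 shifts left after insulin in the left panel.

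The controls were compared to see how the cultures differed before insulin. Synthesis enzymes were mostly higher in the astrocyte-labelled control, with a sum of 61.4 FPKM against 36.2 FPKM in the neuron-labelled control. Of 14 measured enzymes 8 were higher there by 0.5 or more and 2 lower, while 29.6% and 35.5% of all 7146 genes were. By 2-fold, 5 enzymes were higher and 1 lower, while 18.7% and 21.9% of all genes were. Acat2, Nsdhl, Tm7sf2 and Dhcr7 reached 1 FPKM in only 1 of these controls. With 1 FPKM required in both, 6 of 10 enzymes were higher by 0.5 and none lower, while 22.4% and 27.7% of all 4558 genes were. Msmo1 stood at 8.22 FPKM in the astrocyte-labelled cells, against 2.26 FPKM in neuron-labelled ones, a difference of 1.86. Fdps was at 11.0 against 3.58 FPKM (1.62), Acat2 at 1.4 against 0.435 FPKM (1.69), Nsdhl at 1.10 against 0.362 FPKM (1.60) and Cyp51 at 6.60 against 2.88 FPKM (1.20). Tm7sf2 and Dhcr7, both sterol reductases, were lower there by 0.5 or more, at 0.919 and 0.987 FPKM in the astrocyte-labelled control against 2.06 and 1.96 FPKM in the neuron-labelled control. Pmvk was also lower there, at 1.26 against 1.47 FPKM, by less than the call size. Hmgcs1 was near equal, at 9.40 and 8.40 FPKM.

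By level the order in the astrocyte-labelled control was Fdps, Insig1, Hmgcs1, Msmo1, Idi1 and Cyp51, and in the neuron-labelled control Hmgcs1, Insig1, Npc2, Idi1, Fdps and Nr1h2. With no replicates, it cannot be said which neighbours in these orders differ. Soat1 was higher in the astrocyte-labelled control (1.74 against 0.602 FPKM) and Abca1 lower (0.977 against 1.42 FPKM). Abcg1, Nr1h3 and Cyp46a1 were all below 1 FPKM in both and each lower in the astrocyte-labelled control, at 0.0542 FPKM or less there. These contrasts set cultures with abundant transcripts of some mural and fibroblast markers against cultures with those of some glial and neuronal markers. The part of each cell type was not tested.

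**Figure D4:**
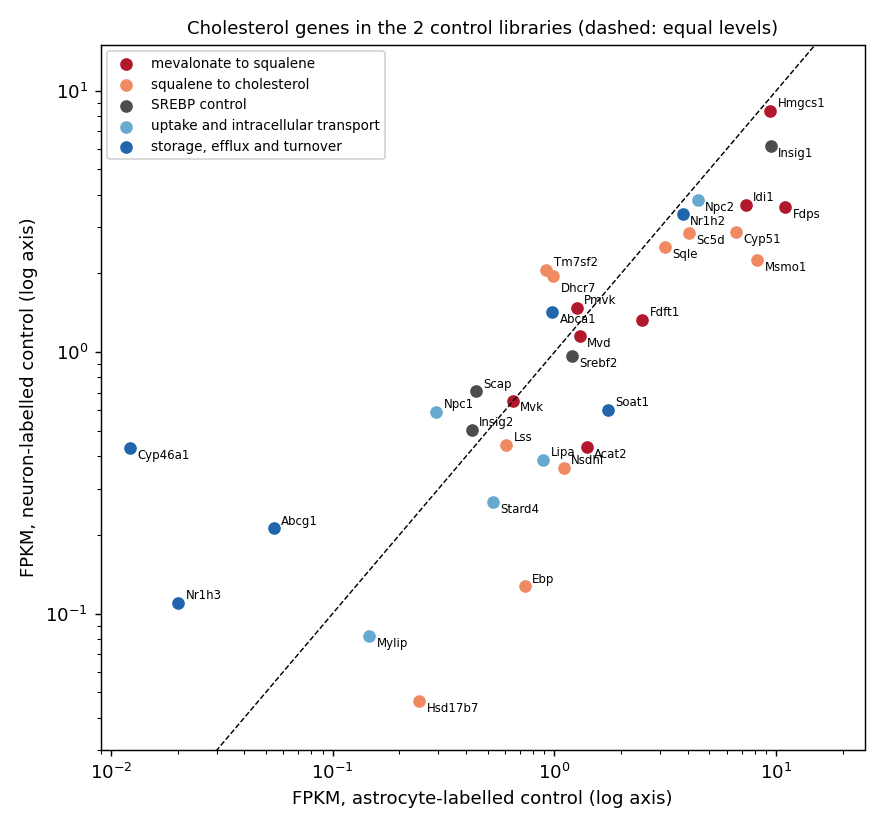
FPKM of each gene in the astrocyte-labelled control (x axis) and the neuron-labelled control (y axis), both on log axes, 1 library each, coloured by step. Points under the dashed line are higher in the astrocyte-labelled control, where Msmo1 (8.22 against 2.26 FPKM) and Fdps (11.0 against 3.58 FPKM) lie farthest below it among genes above 5 FPKM.

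Other genes connected with cholesterol were taken from 5 lists with 65 symbols, of which 62 were found. Few of them rose or fell. In the astrocyte-labelled cultures 1 of 25 measured genes rose and none fell at 6 h, with a median difference of 0.05, and 1 of 24 rose and 1 fell at 12 h, with a median of 0.06. In the neuron-labelled cultures 1 of 29 rose at 6 h and 0 of 29 at 12 h, with medians of 0.19 and 0.14, and none fell. The same shares of all genes apply as given for the enzymes. Of the lipoprotein receptor list 2 genes were measured in the astrocyte-labelled cultures and 6 in the neuron-labelled ones, and of the SREBP-processing list 7 and 6. None of them rose or fell after insulin, which for so few genes is near the shares of all genes. Genes under the 1 FPKM minimum were not counted. Among these, Lrp8 (0.77 and 0.71) and Lrp2 (-0.70 and -0.24) in the astrocyte-labelled cultures were chosen after their values were seen.

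Among these genes, Rabggtb, a subunit of the enzyme that attaches geranylgeranyl groups to Rab proteins, was chosen after its values were seen. It was at 8.70, 11.7 and 12.6 FPKM in the astrocyte-labelled libraries and at 7.97, 11.6 and 10.6 FPKM in the neuron-labelled ones, above the control in all 4 insulin libraries. Its 6 h and 12 h differences were 0.43 and 0.53 in the astrocyte-labelled cultures and 0.54 and 0.41 in the neuron-labelled ones. Ggps1, which makes the geranylgeranyl donor and was also chosen after its values were seen, differed by -0.07 and 0.14 and by 0.37 and 0.25 in the same cultures. Arl4c, an LXR target, was the only measured gene of these lists to pass 0.5 at both times of a cell type, in opposite directions. It was at 1.80, 3.09 and 1.24 FPKM in the astrocyte-labelled libraries, differences of 0.78 and -0.54. In the neuron-labelled libraries it was far more abundant, at 55.7, 51.1 and 51.6 FPKM, differences of -0.12 and -0.11. The part of the cells present in the Arl4c differences was not tested.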

How the data were processed

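RNA of 6 primary rat cultures was measured, 1 library for each of 6 groups, with groups taken from the sample titles and columns matched through the description labels. The deposited values are log2 FPKM after quantile normalisation by the authors, per the file name, and 5 quantiles compared between columns differed by at most 0.000724. The log base was read from the data as 2: Rn45s, 8.679 kb long in RefSeq, reached 13.67, which as a natural log would exceed all fragments of a library. Partek 6.5, bcl2fastq 2.17.1.14 and build Rnor 6.0 are named in the submitters' processing notes, and the aligner is not given in the sources used here. Depth is unknown.

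Of 37185 rows, 2 repeated a symbol, and the row of higher mean was kept. Unused per-sample columns numbered 0. Differences were computed with Python 3.11.15 and pandas 2.3.3 on the deposited log2 values, with no pseudocount, for genes valued in both libraries and at 1 FPKM in either, and the code was tested on simulated data. The call sizes were 0.5 and 1 (log2). Libraries held 22891 to 25528 symbols with a value, fewest in each control, although the quantiles were shared. The part of this in the all-gene medians above 0 of the insulin comparisons was not tested.

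The genes, lists, rule for named genes (all cholesterol genes, markers, and other listed genes reaching 0.5 at both times of a cell type or 1 at either) and thresholds were chosen with earlier results of these data known. The alternatives were no minimum or 5 FPKM, log2(FPKM + 1), centring on the all-gene median, new quantiles over the 19471 symbols valued everywhere, and a call size of 1. A minimum of 1 FPKM in both libraries was added after seeing the data.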

Additional observations from a re-analysis of the deposited data

Results flagged for a closer look

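For 4 of the 33 genes, with no minimum, both insulin libraries of a culture moved against those of the other culture, relative to their own controls. How many of all genes did so was not counted, so it cannot be said whether 4 is many. The difference between the cultures was not tested, since each group is 1 library. Tm7sf2 differed by 0.4582 and 0.5452 at 6 h and 12 h in the astrocyte-labelled cultures and by -0.1905 and -0.1405 in the neuron-labelled ones. Abca1 differed by -0.7523 and -0.6152 in the astrocyte-labelled cultures, below 1 FPKM in each library, and by 0.0442 and 0.1579 in the neuron-labelled ones. Lipa differed by -0.1782 and -0.3164 in the astrocyte-labelled cultures and by 0.1004 and 0.5938 in the neuron-labelled ones, and Hsd17b7 by -0.1496 and -0.1951 and by 0.7650 and 1.7818. Lipa and Hsd17b7 were below 1 FPKM in all 6 libraries.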

How the results depend on the processing

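No paired analysis was possible because each group has 1 library and the labels give no replicate numbers. A median that moved by less than 0.1 (log2), or a count by 1.5 times or less, was taken as kept. Of the counts and medians over the cholesterol genes under alternatives, 97 were kept and 43 moved. The cause of the moves was not tested beyond the construction of each alternative. No called gene changed sign, but these alternatives could hardly reverse a difference of 0.5, so this is no sign of stability. The calls themselves varied. At astrocyte-labelled 12 h Tm7sf2 stayed called in 1 of 4 alternatives and Nsdhl in 4 of 5, and at neuron-labelled 6 h Idi1 did in 6 of 6. The counts below are of genes 0.5 or more higher unless stated, and the comparisons are astrocyte-labelled 6 h and 12 h and neuron-labelled 6 h and 12 h, each minus its control.

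With no minimum, 4 of 33 genes were higher and 1 lower at astrocyte-labelled 6 h, where 23.4% and 8.6% of all genes were. The share of all genes higher at that time ran from 1.05% to 23.4% over the settings. A larger count under a setting is therefore not read as a larger response. Also with no minimum, 2 of 33 were lower at astrocyte-labelled 12 h, and 7 and 12 of 33 were higher at the neuron-labelled times. The share of all genes is not set beside these and most later counts, so they are not read as above or below background. Between 12 h and 6 h, 2 were lower in the astrocyte-labelled cultures, with a median of 0.087, and 2 higher and 1 lower in the neuron-labelled ones. At 5 FPKM, 4 were higher at astrocyte-labelled 12 h and 2 at neuron-labelled 12 h, with neuron-labelled medians of 0.53 and 0.52 over 3 genes. With log2(FPKM + 1), 1 was higher at astrocyte-labelled 12 h, 1 at neuron-labelled 6 h and 1 at 12 h, and the 12 h medians were 0.31 and 0.16. Centred, the counts were 2, 1 and 1, and the medians 0.32, 0.10 and 0.17. With new quantiles they were 3, 1 and 2, the neuron-labelled medians were 0.12 and 0.14, and 1 gene was lower at each astrocyte-labelled time. At a call size of 1, no gene was higher at either 12 h and 1 was at neuron-labelled 6 h, so the counts were 0, 1 and 0. Of all genes 0.611%, 1.6% and 2.39% were higher by that size in the same comparisons. For the astrocyte-labelled control minus the neuron-labelled control, 8 were lower with no minimum. At 5 FPKM, 5 were higher and 0 lower, with a median of 1.09. The median was 0.32 with log2(FPKM + 1) and 0.52 centred. At a call size of 1, 6 of 20 were higher and 1 lower, where 18.7% and 21.9% of all genes were. With 1 FPKM required in both libraries, chosen after seeing the data, 0 were lower, and the other counts and medians were kept.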
